A study of Mus musculus with 2 samples.

Results

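The genes described are 10 regulators of the G1 phase of the cell cycle: the D-type cyclins Ccnd2 and Ccnd3, the kinases Cdk4 and Cdk6, the transcription factor E2f1, the E-type cyclins Ccne1 and Ccne2, and the inhibitors Cdkn1b, Cdkn2c and Cdkn2d. They were taken by symbol from a list of names, with no measured value in the rule, and all 10 of them are among the 32285 features of the files. The members were, however, chosen with earlier results of these data known. The values come from scRNA-Seq of splenic YFP+ Tregs of 7-day-old C57BL/6J mice, as 1 WT library and 1 KO (Zfp335fl/flFoxp3-Cre) library. In these mice a YFP and Cre fusion is expressed from the Foxp3 locus, the study's methods describe the WT mice as Foxp3-Cre mice without floxed Zfp335, and the number of mice per library is not given in the sources used here. The cells had been sorted as CD4+, YFP+ and negative for the death dye 7AAD. Of 14524 WT and 18134 KO barcodes, 8053 WT and 13767 KO barcodes had at least 300 genes and at most 5% of their unique molecular identifiers (UMIs, 1 per captured transcript) on mitochondrial genes, and 29 barcode sequences were kept in both libraries.

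In G1, a cell decides whether to enter a new round of division. D-type cyclins bind Cdk4 or Cdk6, and the active kinase phosphorylates the retinoblastoma protein, which releases E2F transcription factors. E2F factors raise E-type cyclins, which drive the kinase Cdk2 and the start of DNA synthesis. The INK4 proteins, among them p18 (Cdkn2c) and p19 (Cdkn2d), bind Cdk4 and Cdk6, whereas p27 (Cdkn1b) binds cyclin and kinase complexes and is known for holding resting T cells out of the cycle. In T cells, Ccnd2, Ccnd3 and Cdk6 are the best known carriers of the D-cyclin step. Levels below are in CPM, the UMIs of a gene per 1000000 UMIs of the pooled barcodes of a group. The 95% intervals in parentheses are exact and cover only the counting error. Neither genotype has a replicate library, so genotype, mouse and library cannot be told apart. No test between libraries was run, and a value was counted as higher or lower where the ratio was at least 1.5 or at most 1/1.5 with at least 200 UMIs over both groups.

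RefSeq promoter windows of GRCm38.p6, from 250 bases before to 50 bases after an annotated start, were found for 8 of the members, in 10 windows. The windows of 4 members are shown, because E2f1 and Ccne1 had the highest S over non-cycling ratios among the members with a window, and Cdkn2c and Cdkn2d were the inhibitors that were highest in G2/M. The 8-letter E2F-type motifs TTTCCCGC, TTTCGCGC, TTTGCCGC and TTTGGCGC, read on both strands, were in 0 of the 8 members. They were in 2.26% of all 32851 windows and, counted per gene as the members are, in 2.6% of 27025 genes. A 7-letter E2F-type core, GGCGGGA on either strand, which shares 6 letters with the reverse complement of the first of these motifs, was in 3 of the 8 members (Ccne1, Cdkn2c and Cdkn2d). It was in 11.3% of all windows and in 12.7% of all genes. The capitals mark this core, which starts 48 bases before the RefSeq start used in Ccne1, 153 before it in Cdkn2c and 200 before it in Cdkn2d. It is not in the E2f1 window. For E2f1, Cdkn2c and Cdk6, the windows lie inside the gene as placed by GENCODE. Their 5' ends there are at 154569892 (minus strand), 109667189 (minus strand) and 3341485 (plus strand). The bases before these 5' ends were therefore not searched, and the E2f1 window does not show whether they hold a motif.
Ccne1 (chr7:38107441-38107740, minus strand): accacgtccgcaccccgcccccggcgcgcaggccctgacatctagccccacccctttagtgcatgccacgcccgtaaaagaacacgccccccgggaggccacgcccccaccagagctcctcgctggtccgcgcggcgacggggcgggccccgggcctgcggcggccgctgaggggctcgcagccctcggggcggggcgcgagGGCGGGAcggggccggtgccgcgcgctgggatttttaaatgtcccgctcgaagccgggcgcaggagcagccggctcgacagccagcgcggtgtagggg
Cdkn2c (chr4:109666707-109667006, minus strand): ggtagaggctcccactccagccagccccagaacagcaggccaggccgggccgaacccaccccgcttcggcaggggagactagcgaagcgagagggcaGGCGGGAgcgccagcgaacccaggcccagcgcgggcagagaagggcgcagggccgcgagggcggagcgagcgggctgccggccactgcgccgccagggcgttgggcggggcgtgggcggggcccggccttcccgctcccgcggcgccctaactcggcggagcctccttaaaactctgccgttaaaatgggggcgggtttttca
Cdkn2d (chr9:21291160-21291459, minus strand): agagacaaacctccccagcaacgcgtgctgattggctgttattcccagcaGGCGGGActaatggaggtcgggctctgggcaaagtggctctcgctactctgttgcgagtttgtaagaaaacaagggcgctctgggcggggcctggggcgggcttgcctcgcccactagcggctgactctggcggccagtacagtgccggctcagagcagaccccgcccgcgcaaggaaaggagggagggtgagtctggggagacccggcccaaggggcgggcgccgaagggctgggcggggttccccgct
E2f1 (chr2:154569377-154569676, minus strand): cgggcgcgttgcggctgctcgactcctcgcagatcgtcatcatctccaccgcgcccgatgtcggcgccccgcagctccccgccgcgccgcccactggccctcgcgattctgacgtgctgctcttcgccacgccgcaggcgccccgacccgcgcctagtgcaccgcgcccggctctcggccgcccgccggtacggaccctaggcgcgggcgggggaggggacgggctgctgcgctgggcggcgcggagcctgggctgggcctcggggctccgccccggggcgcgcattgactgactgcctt

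The labels were checked on Zfp335, the deleted gene. Over T-lineage barcodes it had 397 UMIs in WT, or 8.19 CPM, and 42 UMIs in KO, or 0.801 CPM, a ratio of 0.0978 (0.0694 to 0.135). Clustering without the 10 members gave 7482 WT and 13013 KO T-lineage barcodes and 571 WT and 754 KO barcodes of other lineages, which were led by erythroid, neutrophil, B cell or macrophage genes. Foxp3 was at 40.7 CPM in WT and 44.4 CPM in KO T-lineage barcodes, against 5.58 and 9.25 CPM in the other lineages. Resting Treg-like barcodes (2504 WT, 5152 KO), activated Treg-like barcodes (449 WT, 849 KO) and effector Treg-like barcodes (2178 WT, 122 KO) were named from marker lists. The activated cluster was led by Phlda3, Lad1, Penk, Nefh, Bcat1 and Asns, of which Phlda3 and Asns are known stress-response genes. A cycling cluster (214 WT, 971 KO) had raised S and G2/M lists, and a cycling effector cluster was held by 594 WT and 30 KO barcodes. Shallow T-lineage barcodes led by globin and granule genes (1084 WT, 5671 KO) or by nuclear RNA (459 WT, 218 KO) stayed unnamed. The 9 genes of an erythroid list summed to 535 CPM in WT and 3148 CPM in KO T-lineage barcodes, with 9 of 9 higher in KO, and to 539.5 and 1051 CPM in resting barcodes, with 6 of 9 higher. The 9 genes of a neutrophil list summed to 337 and 839 CPM over the T lineage, with 9 of 9 higher in KO, and to 368 and 255 CPM in resting barcodes, with 0 of 9 higher. No gene of either list was at 0 in both libraries, and the part of these genes in the differences below was not tested.

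Each T-lineage barcode was also put in a cycle class from lists of S and G2/M genes that hold none of the members. A barcode with at least 1% of its UMIs on the G2/M list was called G2/M, one of the others with at least 0.5% on the S list was called S, and the rest were called non-cycling. This gave 6000 non-cycling, 490 S and 992 G2/M barcodes in WT and 10764, 751 and 1498 in KO. Both cuts were chosen with the data in view, and 994 WT and 2279 KO barcodes lay within 20% of one. The median depth was 10201 UMIs in S barcodes of WT and 3767 UMIs in those of KO. The classes drew on different clusters in the libraries: of the S barcodes, 142 were cycling effector and 33 of the cycling cluster in WT, against 4 and 164 in KO. Of S and G2/M barcodes together, 574 of 1482 in WT were cycling effector and 344 were led by globin or granule genes, and in KO 919 of 2249 were led by globin or granule genes. A KO over WT ratio within a class therefore compares different mixtures of states. A ratio between classes of 1 library does so too. In WT, 2476 of 6000 non-cycling but 15 of 490 S barcodes were resting, and in KO 5019 of 10764 but 64 of 751. In comparisons of classes, cycling barcodes are S and G2/M barcodes together, and in comparisons of states they are those of the cycling cluster.

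Pooled over states, the members fell into separate patterns over the cycle classes. The E-type cyclins, E2f1 and Cdk4 were highest in S, Cdkn2c and Cdkn2d were highest in G2/M, Cdkn1b was highest in non-cycling barcodes, Ccnd2 was lower in both cycling classes than in non-cycling barcodes, and Ccnd3 stayed within 1.5-fold over the classes of a library. These patterns did not hold within each state. Cdkn2d in G2/M and non-cycling barcodes was at 105 and 107 CPM in WT effector and at 95.8 (63.2 to 139) and 206 CPM in KO resting barcodes. In activated barcodes it was higher in G2/M, at 49.1 and 31.4 CPM in WT and 104 and 61.1 CPM in KO. From non-cycling to all cycling barcodes, 5 of 10 members were higher and 2 lower past 1.5-fold in WT, where 26.7% of all tested genes passed, and 5 were higher and 0 lower in KO, where 15.5% passed. The 5 higher members were Ccne1, Ccne2, Cdkn2c, E2f1 and Cdk4 in both libraries. The Cdk4 call was lost with cuts 1.5 times as high, where its ratio went from 1.68 to 1.21 in WT and from 1.52 to 1.19 in KO, and in KO also without the mitochondrial filter and with means of single-barcode CPM (1.36). The WT call of Cdkn1b as lower was lost at those cuts too (0.652 to 0.875), and Cdkn2d became higher in both libraries (2.07 in WT, 1.68 in KO). With these cuts, the WT ratio of cycling over non-cycling went from 4.78 to 2.12 for Ccne1, from 4.83 to 2.44 for Ccne2 and from 3.79 to 2.24 for E2f1. From non-cycling to S, 5 members were higher and 2 lower in each library, against backgrounds of 33.4% in WT and 24.3% in KO. From S to G2/M, 3 members were higher and 4 lower in WT (background 12.4%) and 3 were higher and 3 lower in KO (background 13.5%).

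**Figure D1:**
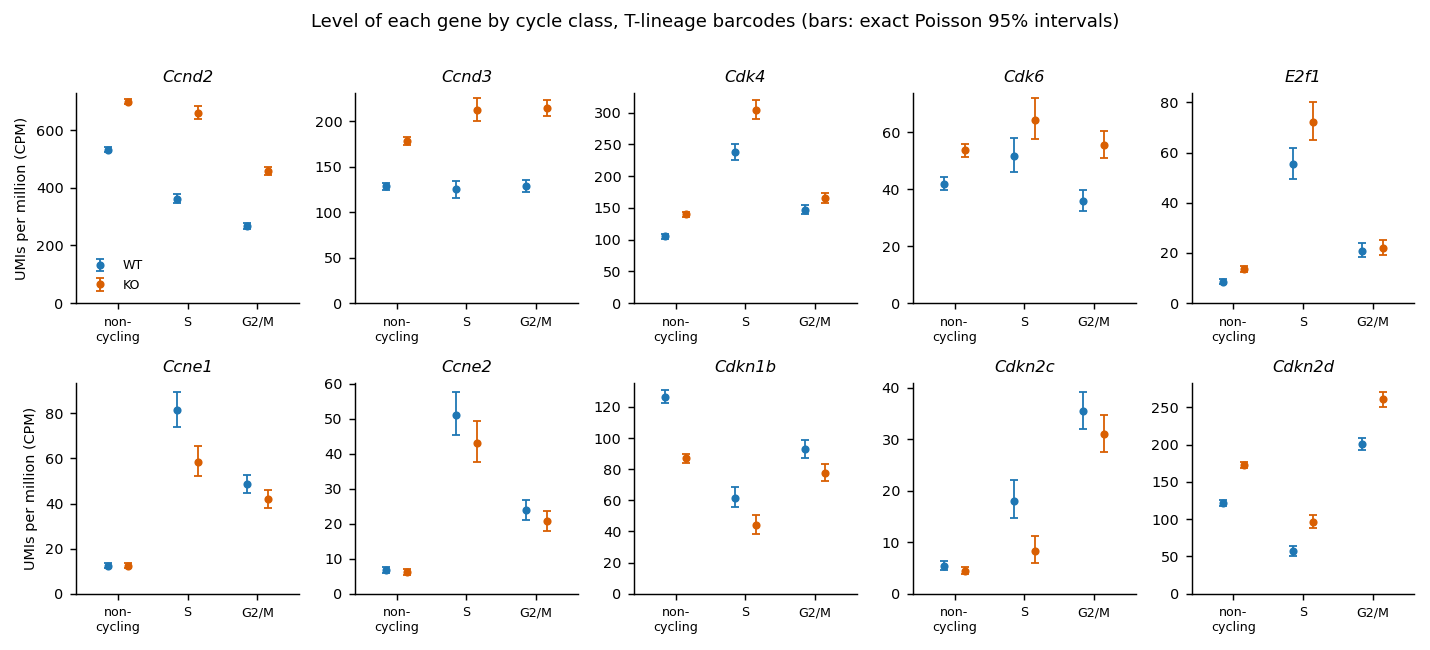
Each panel plots 1 gene, with its CPM on the vertical axis (linear, starting at 0) for non-cycling, S and G2/M T-lineage barcodes of the WT library (blue) and the KO library (orange); points are pooled levels and bars are exact Poisson 95% intervals. E2f1, Ccne1, Ccne2 and Cdk4 peaked in S, Cdkn2c and Cdkn2d were highest in G2/M, and Ccnd2 and Ccnd3 lay higher in KO than in WT in all 3 classes.

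Ccnd2 (cyclin D2; ENSMUSG00000000184, chromosome 6, 127125162 to 127152193, minus strand, GRCm38) is one of the cyclins that link growth signals to Cdk4 and Cdk6. In WT it was at 533 CPM (525 to 541) in non-cycling, 363 CPM in S and 267 CPM in G2/M barcodes. In KO the same classes had 699 CPM (691 to 708), 661 and 457 CPM. Pooled over states, S-phase barcodes were therefore at 0.681 (0.649 to 0.713) of the non-cycling level in WT and at 0.945 (0.911 to 0.980) in KO. Within states this differed. Non-cycling and S levels in WT were 618 and 824 CPM (655 to 1025) in resting barcodes. They were 626 and 355 CPM in activated and 462 and 457 CPM in effector barcodes of WT. In the same order of states they were 738 and 1038 CPM (940.5 to 1143), 796 and 699 CPM, and 763 and 743 CPM in KO. The resting S value of WT comes from 15 barcodes and the effector S value of KO from 7. From S to G2/M the pooled Ccnd2 level dropped further in both libraries, with ratios of 0.736 (0.695 to 0.779) in WT and 0.692 (0.661 to 0.724) in KO.

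Across the named states, Ccnd2 in WT fell from 617 CPM (603 to 632) in resting to 507 CPM in activated, 448 CPM in effector and 297 CPM in cycling barcodes. No pair of neighbours in this order had overlapping intervals. Among non-cycling barcodes alone, WT resting and activated barcodes were at 618 CPM (603 to 633) and 626 CPM (599 to 653), with overlapping intervals. Non-cycling effector barcodes of WT were at 462 CPM (451 to 473). In KO the resting, activated and effector levels were 739.9 CPM (729 to 751), 739.6 CPM (722 to 757) and 745 CPM (688 to 805), whose intervals overlap, and the cycling level was 479.6 CPM. Among non-cycling barcodes of KO, activated, at 796 CPM (774 to 819), lay above resting, at 738 CPM (726 to 749). Effector over resting was 0.725 (0.702 to 0.749) in WT, against 1.01 (0.928 to 1.09) in KO. The KO over WT ratio was 1.20 (1.17 to 1.23) in resting, 1.46 (1.40 to 1.52) in activated, 1.66 (1.53 to 1.80) in effector and 1.61 in the cycling cluster. It was 1.82 (1.72 to 1.93) over all S barcodes and 1.35 (1.13 to 1.63) over the S barcodes of the cycling cluster. Ccnd2 was also higher in KO in the other lineages, at 152 CPM in WT and 235 CPM in KO, a ratio of 1.55 (1.42 to 1.69). It was 1.75 (1.51 to 2.03) in erythroid and 1.44 (1.28 to 1.62) in neutrophil-type barcodes, so that the Ccnd2 difference was not limited to T-lineage barcodes. The mix of the other lineages differed, with 286 of 571 barcodes erythroid in WT and 515 of 754 in KO.

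Ccnd3 (cyclin D3; ENSMUSG00000034165, chromosome 17, 47505051 to 47599691, plus strand), the D cyclin that developing lymphocytes are known to need, was almost level over the cycle classes in WT, at 128 CPM (124 to 132) in non-cycling, 125 CPM in S and 128 CPM in G2/M barcodes. In KO it was 178 CPM (174 to 183), 212 CPM and 214 CPM. The KO over WT ratio was 1.70 (1.54 to 1.87) in S and 1.67 (1.56 to 1.79) in G2/M. By state, Ccnd3 was lowest in activated barcodes of both libraries, at 78.1 CPM in WT and 106 CPM in KO, against 162 and 202 CPM in resting barcodes. Activated over resting was 0.481 (0.434 to 0.532) in WT, against 0.527 (0.491 to 0.565) in KO. The D cyclins thus parted on activation: in KO, activated over resting was 1.000 (0.972 to 1.03) for Ccnd2, and in WT it was 0.821 (0.787 to 0.857). Among non-cycling barcodes alone, the Ccnd2 level of activated barcodes was not below that of resting barcodes in either library. In the other lineages the Ccnd3 ratio of KO over WT was 1.13 (1.05 to 1.22).

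Cdk4 (ENSMUSG00000006728, chromosome 10, 127063534 to 127067920, plus strand), the kinase partner of the D cyclins, was highest in S. WT levels were 105 CPM (102 to 109) in non-cycling, 238 CPM (225 to 251) in S and 147 CPM in G2/M barcodes, and KO levels were 140.0, 305 and 166 CPM. The S over non-cycling ratio was 2.26 (2.12 to 2.41) in WT, against 2.17 (2.05 to 2.30) in KO. Activated barcodes carried the highest Cdk4 level of the named states, 252 CPM (239.7 to 265) in WT and 276 CPM (265 to 287) in KO, against 85.3 and 104 CPM in resting barcodes. This held among non-cycling barcodes alone, where activated over resting was 2.66 (2.42 to 2.93) in WT, against 2.47 (2.31 to 2.63) in KO. KO over WT was 1.23 (1.19 to 1.27) over all T-lineage barcodes and 1.09 (1.03 to 1.17) in activated barcodes.

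Cdk6 (ENSMUSG00000040274, chromosome 5, 3341485 to 3531008, plus strand), the other partner kinase, moved less with the cycle. S over non-cycling was 1.23 (1.08 to 1.40) in WT, against 1.20 (1.06 to 1.35) in KO. In WT the G2/M level of 36.0 CPM (32.5 to 39.6) was below the S level of 51.8 CPM (45.9 to 58.2), and in KO the levels were 55.7 and 64.4 CPM with overlapping intervals. By state, Cdk6 in WT was 72.9 CPM (66.3 to 80.1) in activated, 41.6 CPM (37.9 to 45.5) in resting, 39.0 CPM (30.9 to 48.7) in cycling and 33.8 CPM (31.1 to 36.6) in effector barcodes, and the last 3 did not form an order beyond counting error except that resting lay above effector. In KO it was 61.8 CPM in activated, 54.2 CPM in cycling, 52.9 CPM in effector and 46.3 CPM in resting barcodes. The KO over WT ratio lay below 1 in activated barcodes, at 0.848 (0.747 to 0.962), and above 1 in effector and cycling barcodes, at 1.57 (1.13 to 2.12) and 1.39 (1.09 to 1.78). The effector value rests on 45 UMIs in KO, and among non-cycling effector barcodes the ratio was 1.44 (0.995 to 2.01), which includes 1.

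E2f1 (ENSMUSG00000027490, chromosome 2, 154559407 to 154569892, minus strand) encodes the factor that the retinoblastoma protein holds back, and E2F factors raise it in turn. It was at 8.53 CPM (7.54 to 9.61) in non-cycling, 55.4 CPM (49.4 to 62.0) in S and 21.0 CPM (18.4 to 23.8) in G2/M barcodes of WT. The KO levels were 13.6 CPM (12.5 to 14.8), 72.3 CPM (65.0 to 80.2) and 22.0 CPM (19.1 to 25.1). S over non-cycling was 6.50 (5.50 to 7.68) in WT, against 5.32 (4.63 to 6.10) in KO, and G2/M over S was 0.378 and 0.304. In resting barcodes E2f1 was the only member with at least 200 UMIs that passed 1.5-fold, with 75 UMIs and 6.60 CPM in WT, 235 UMIs and 10.2 CPM in KO, and a KO over WT ratio of 1.54 (1.18 to 2.03). The same ratio was 1.59 (1.37 to 1.85) in all non-cycling barcodes, and 1.38 there when unnamed clusters were left out, a difference no longer past 1.5-fold. Without the mitochondrial filter the ratio in resting barcodes was also 1.38. Among resting barcodes called non-cycling it was 1.49 (1.13 to 1.99), no longer past 1.5-fold.

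Ccne1 (cyclin E1; ENSMUSG00000002068, chromosome 7, 38097984 to 38107534, minus strand) and Ccne2 (cyclin E2; ENSMUSG00000028212, chromosome 4, 11191351 to 11204779, plus strand) activate Cdk2 at the start of DNA synthesis, and both were far higher in S than in non-cycling barcodes. Ccne1 in WT was 12.4 CPM (11.2 to 13.7) in non-cycling, 81.5 CPM (74.1 to 89.4) in S and 48.5 CPM (44.5 to 52.8) in G2/M, and in KO it was 12.3, 58.6 CPM (52.0 to 65.7) and 41.8 CPM (37.9 to 46.1). The KO over WT ratio of Ccne1 was 0.719 (0.618 to 0.835) over all S barcodes. It was 1.10 (0.706 to 1.80) over the S barcodes of the cycling cluster, with 23 UMIs in WT and 137 in KO. This interval includes 0.719, so these counts cannot show whether the lower level holds within that cluster. Ccne2 in WT was 6.80 CPM (5.92 to 7.77), 51.2 CPM (45.4 to 57.6) and 23.8 CPM (21.0 to 26.9), and in KO 6.14, 43.2 CPM (37.6 to 49.4) and 20.7 CPM (17.9 to 23.7). Its S over non-cycling ratio, 7.54 (6.29 to 9.04) in WT and 7.03 (5.81 to 8.50) in KO, had the highest value of the 10 members in each library.

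Among the named T cell states, the widest gap between libraries for an E-type cyclin was in activated barcodes, where Ccne1 was at 43.8 CPM (38.6 to 49.4) in WT and 24.4 CPM (21.4 to 27.9) in KO, a ratio of 0.559 (0.466 to 0.670). Activated barcodes called S made up 90 of 449 in WT and 145 of 849 in KO. Among non-cycling activated barcodes the Ccne1 ratio was 0.589 (0.428 to 0.811), from 79 UMIs in WT and 84 in KO. For Ccne2 the activated ratio was 0.683 (0.540 to 0.864). Ccne1 was lower in KO in the other lineages too, at 0.581 (0.487 to 0.691), and in erythroid barcodes the ratio was 0.479 (0.390 to 0.585). Among erythroid barcodes 24.2% of all tested genes passed 1.5-fold, with a median log2 ratio of -0.33. Of these barcodes, 198 of 286 in WT and 300 of 515 in KO lay in the erythroid cluster with the higher S share. Both ratios thus compare different mixtures. In neutrophil-type barcodes it was 1.00 (0.688 to 1.46).

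Cdkn1b (p27; ENSMUSG00000003031, chromosome 6, 134920401 to 134925513, plus strand) ran against Cdk4 over the cycle. In WT it was 127 CPM (123 to 131) in non-cycling, 61.8 CPM (55.4 to 68.7) in S and 92.8 CPM (87.2 to 98.6) in G2/M barcodes. In KO the levels were 87.0 CPM (84.1 to 90.1), 44.2 CPM (38.5 to 50.4) and 77.7 CPM (72.2 to 83.4), so that the S class was lowest in both libraries. Pooled over states, S over non-cycling was 0.488 (0.436 to 0.545) in WT, against 0.508 (0.440 to 0.582) in KO. Within WT activated barcodes the S level was 41.6 CPM (33.2 to 51.5), against 42.0 CPM (35.4 to 49.5) in non-cycling ones. In WT effector barcodes these levels were 98.5 CPM (76.7 to 125) and 128 CPM (122 to 134). In KO activated barcodes they were 27.4 CPM (20.9 to 35.3) and 40.5 CPM (35.7 to 45.9). KO barcodes were lower than WT barcodes in all 3 classes, with ratios of 0.687 (0.656 to 0.720), 0.715 (0.600 to 0.850) and 0.837 (0.761 to 0.920).

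By state, Cdkn1b in WT was 148 CPM (141 to 156) in resting, 127 CPM (122 to 133) in effector, 96.9 CPM (83.8 to 111) in cycling and 42.1 CPM (37.1 to 47.6) in activated barcodes, an order in which no neighbours overlap. In KO it was 104 CPM (100.3 to 109) in resting, 76.5 CPM (59.0 to 97.5) in effector, 75.7 CPM (70.2 to 81.5) in cycling and 38.2 CPM (34.4 to 42.5) in activated barcodes, and effector and cycling could not be ordered. KO over WT was 0.704 (0.661 to 0.749) in resting, 0.600 (0.462 to 0.768) in effector and 0.781 (0.666 to 0.920) in cycling barcodes. In activated barcodes it was 0.909 (0.771 to 1.07), and in the other lineages 0.968 (0.815 to 1.15), at 50.8 CPM in WT and 49.1 CPM in KO. The interval of each of these last ratios includes 1. The unnamed nuclear RNA-led barcodes had the highest Cdkn1b level of any T-lineage group, 221 CPM in WT and 167 CPM in KO.

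**Figure D2:**
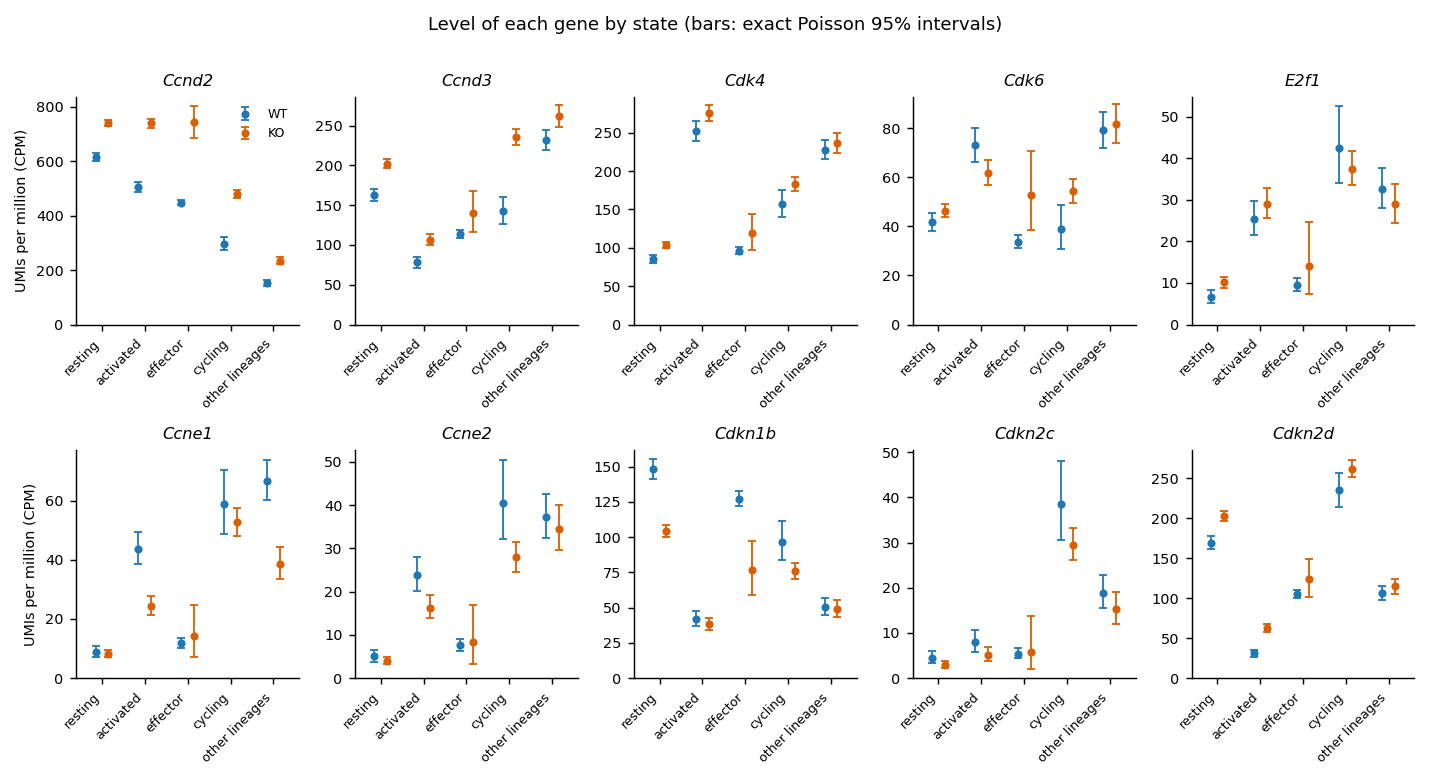
Each panel plots 1 gene, with CPM on the vertical axis (linear, starting at 0) for resting, activated, effector and cycling T-lineage barcodes and for other lineages, WT in blue and KO in orange; bars are exact Poisson 95% intervals. Ccnd2 stepped down from resting to cycling in WT but was level over resting, activated and effector in KO, and Cdkn1b was lower in KO than in WT in the resting and effector states, with overlapping intervals in the other lineages. Among non-cycling barcodes alone, which are not plotted separately here, Ccnd2 in activated barcodes was not below resting in either library. The effector values of KO come from 122 barcodes.

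Cdkn1b was also expressed per 100 Ccnd2 UMIs of the same barcodes, as a description of both genes together. Ccnd2 was itself higher in KO in these groups, so a lower KO value does not by itself show less Cdkn1b. This quantity was 24.0 (22.8 to 25.4) in WT, against 14.1 (13.5 to 14.7) in KO resting barcodes, and 28.5 (27.1 to 29.8) and 10.3 (7.83 to 13.3) in effector barcodes. In S it was 17.04 (15.1 to 19.1) in WT, against 6.69 (5.80 to 7.67) in KO. It was lowest in activated barcodes, at 8.31 (7.28 to 9.44) in WT and 5.17 (4.63 to 5.76) in KO. In the other lineages, where the Cdkn1b level differed by less than its counting error, it was 33.4 (29.2 to 38.2) in WT, against 20.9 (18.2 to 23.9) in KO.

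**Figure D3:**
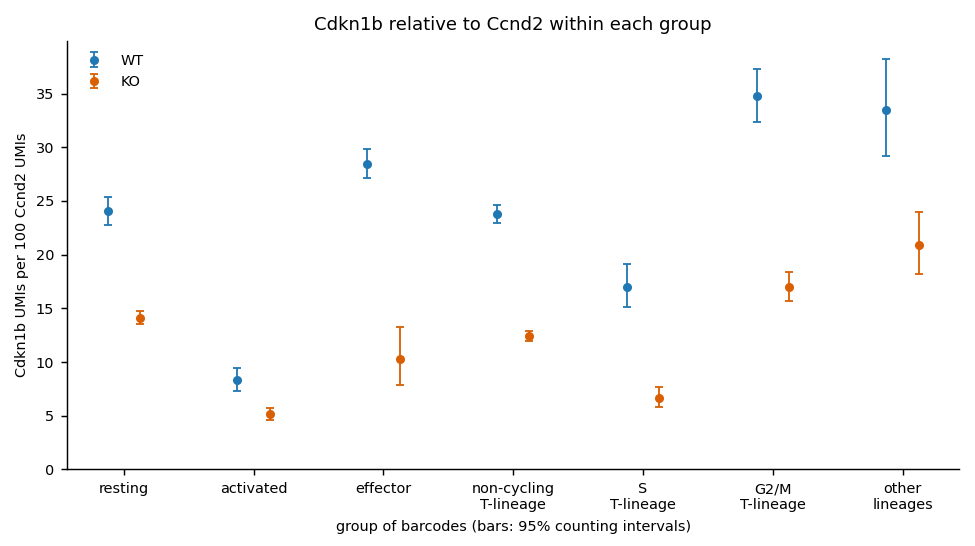
The vertical axis gives Cdkn1b UMIs per 100 Ccnd2 UMIs (linear, starting at 0) and the horizontal axis gives 3 T-lineage states, 3 cycle classes and the other lineages, WT in blue and KO in orange, with 95% counting intervals as bars. The KO point lies below the WT point in every group plotted, also in the other lineages, where Ccnd2 and not Cdkn1b differed past its counting interval, and the activated and S groups are lowest in each library.

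Cdkn2c (p18; ENSMUSG00000028551, chromosome 4, 109660876 to 109667189, minus strand) and Cdkn2d (p19; ENSMUSG00000096472, chromosome 9, 21288410 to 21291407, minus strand), the INK4 inhibitors, were both highest in G2/M but differed in S. Cdkn2c in WT was 5.44 CPM (4.66 to 6.32) in non-cycling, 18.0 CPM (14.7 to 22.0) in S and 35.4 CPM (32.0 to 39.1) in G2/M, and in KO 4.37 CPM (3.73 to 5.09), 8.31 CPM (5.96 to 11.3) and 30.9 CPM (27.5 to 34.6). The S value in KO rests on 41 UMIs, and the KO over WT ratio there, with under 200 UMIs in all, was 0.460 (0.312 to 0.669). Cdkn2d in WT was 121 CPM (117 to 125), 56.7 CPM (50.6 to 63.4) and 201 CPM (193 to 209), and in KO 172, 96.6 and 261 CPM. Cdkn2d therefore dropped in S, with S over non-cycling ratios of 0.468 (0.415 to 0.525) in WT and 0.560 (0.510 to 0.615) in KO, where Cdkn2c rose, with 3.32 (2.56 to 4.27) and 1.90 (1.32 to 2.69).

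Cdkn2d was the member that fell most from resting to activated barcodes. In WT it was 169.5 CPM (162 to 177) in resting, 105 CPM (100.3 to 110.1) in effector and 31.0 CPM (26.7 to 35.8) in activated barcodes, and activated over resting was 0.183 (0.156 to 0.213). In KO the levels were 203 CPM (197 to 209), 124 CPM (101 to 149.5) and 62.4 CPM (57.4 to 67.7), and the ratio was 0.308 (0.282 to 0.335). The KO over WT ratio in activated barcodes, 2.01 (1.70 to 2.39), was the widest for any member in resting, activated, effector or cycling barcodes. In resting barcodes it was 1.20 (1.13 to 1.26).

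From resting to activated barcodes, 5 members were higher and 3 lower past 1.5-fold among the 9 with enough UMIs in WT, and 4 were higher and 3 lower among 9 in KO. The higher ones in WT were Ccne1, Ccne2, E2f1, Cdk4 and Cdk6, all but Cdk6 were higher in KO too, and the lower ones were Cdkn2d, Cdkn1b and Ccnd3 in both. Of all tested genes, 51.1% passed in WT and 42.1% in KO. The states differ in cycling: 90 of 449 activated but 15 of 2504 resting barcodes of WT were called S. Among non-cycling barcodes alone, 2 of 6 members were higher and 3 lower in WT (background 46.3%). In KO 3 of 8 were higher and 3 lower (background 39.2%). There Ccne1, Ccne2 and E2f1 had under 200 UMIs in WT, with ratios of 2.68, 2.79 and 1.91. From resting to effector barcodes in WT, 0 of 8 members were higher and 1, Cdkn2d, was lower, at 0.620 (0.581 to 0.661), against a background of 14.6%.

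Between the libraries, 0 of 10 members passed 1.5-fold over all T-lineage barcodes, where 13.5% of 10244 tested genes passed. The ratios were 1.47 (1.43 to 1.52) for Ccnd3, 1.44 (1.41 to 1.46) for Ccnd2 and 1.37 (1.33 to 1.42) for Cdkn2d at the upper end, and 0.700 (0.623 to 0.787) for Cdkn2c and 0.729 (0.700 to 0.759) for Cdkn1b at the lower end. The median log2 ratio was 0.31 over the members and -0.06 over all tested genes. In resting barcodes 1 of 8 members with enough UMIs passed (E2f1; background 8.85%). In non-cycling barcodes 1 of 10 passed (E2f1; background 13.4%) and in S and G2/M barcodes together 2 of 10 (Ccnd2 and Ccnd3; background 12.9%). In activated barcodes 1 of 9 was higher (Cdkn2d) and 1 lower (Ccne1; background 9.43%). In effector barcodes 2 of 7 were higher (Ccnd2 and Cdk6) and 1 lower (Cdkn1b; background 15.6%). In the other lineages 1 of 9 was higher (Ccnd2) and 1 lower (Ccne1; background 7.06%).

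**Figure D4:**
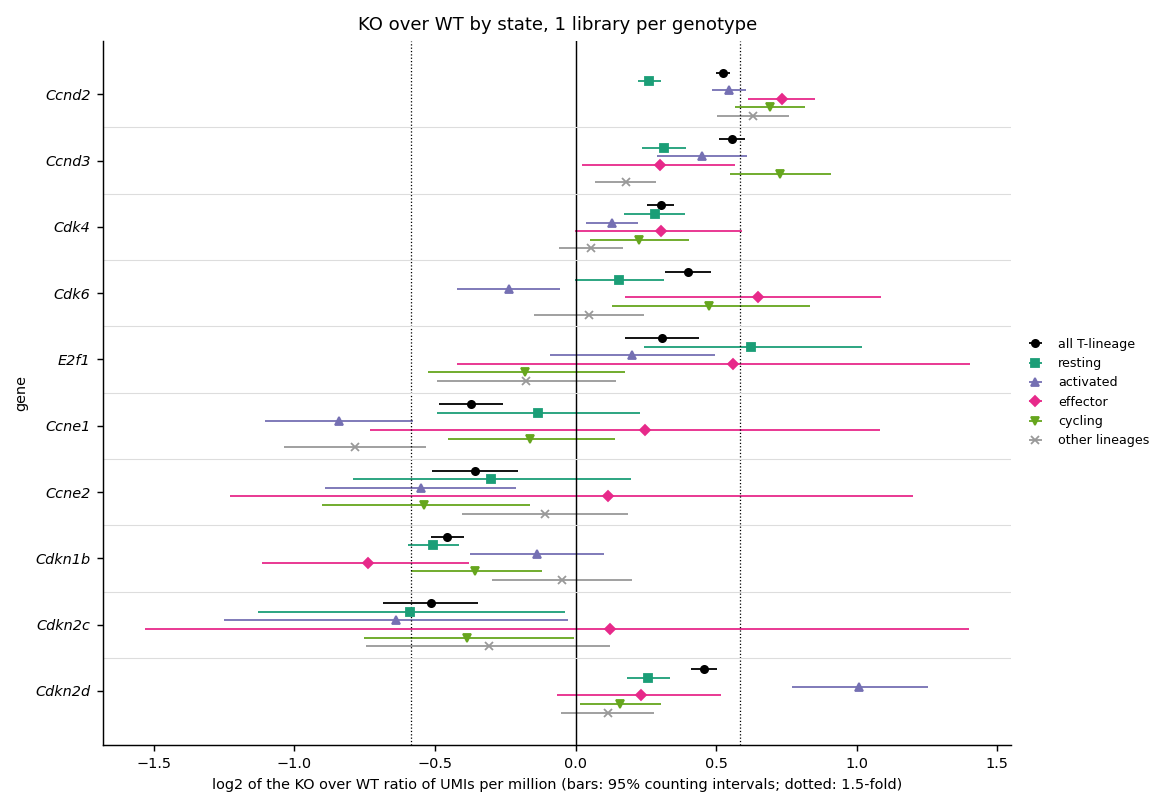
The horizontal axis gives the log2 of the KO over WT ratio of CPM for each gene (rows), in all T-lineage, resting, activated and effector barcodes, the cycling cluster and other lineages (symbols); bars are 95% counting intervals, the solid line marks equal levels and dotted lines mark 1.5-fold. Ccnd2 lies right of the solid line in all 6 groups, Cdkn1b lies left of it in all 6 with the other lineages nearest to it, and Cdk6 is left of it in activated barcodes and right of it in the other groups.

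KO barcodes were shallower than WT barcodes, with medians of 2692 and 5023 UMIs in the T lineage, and the share of barcodes in which a gene is detected (at least 1 UMI) depends on depth. Without thinning, this share was lower in KO for all 10 members, with a KO minus WT difference of -1.61 points (-2.88 to -0.325) for Ccnd2 and -19.1 points (-20.4 to -17.7) for Cdkn1b. After each barcode had been thinned to 1000 UMIs, which left out 1069 WT and 1078 KO T-lineage barcodes, the share for Ccnd2 was 35.3% in WT and 43.8% in KO, a difference of 8.53 points (7.05 to 9.99). The differences were 4.71 points (3.77 to 5.62) for Cdk4, 4.34 points (3.28 to 5.38) for Cdkn2d, 4.19 points (3.11 to 5.25) for Ccnd3, 1.17 points (0.527 to 1.79) for Cdk6 and 0.443 points (0.0750 to 0.786) for E2f1. Cdkn1b was the only member whose interval lay below 0, with 12.6% in WT, 8.22% in KO and a difference of -4.41 points (-5.37 to -3.47). For Ccne1, Ccne2 and Cdkn2c the interval of the difference included 0. For 6 members (Ccnd2, Ccnd3, Cdk4, Cdk6, Cdkn2d and E2f1) the interval thus lay below 0 without thinning and above 0 after it.

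These 10 genes are not specific to T cells, and no kept lineage is known to lack them. In the other lineages, with median depths of 7273 UMIs in WT and 3802 in KO against 5723 and 2975 in the T lineage, all before thinning and over barcodes with at least 1000 UMIs only, the thinned share was 12.5% in WT and 22.3% in KO for Ccnd2 and 5.16% and 7.23% for Cdkn1b, both below the T-lineage shares, as was the share for Cdkn2d, 10.7% and 10.8%. For Ccnd3 it was 17.7% and 19.9%, for Cdk4 11.9% and 13.6%, and for Ccne1 4.17% and 2.41%, all above the T-lineage shares. The T-lineage shares of Ccne2, Cdkn2c and E2f1 were also below those of the other lineages in both libraries. Because the other lineages can express these genes themselves, their shares do not measure the background of free RNA. For Ccnd3, Cdk4, Ccne1, Ccne2, Cdkn2c and E2f1 the difference of the thinned share is not read as one of expression. The part of free RNA in the shares of the other members was not tested either. For Cdk6 the T-lineage share was 4.15% in WT and 5.32% in KO, against 4.17% and 4.26%.

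**Figure D5:**
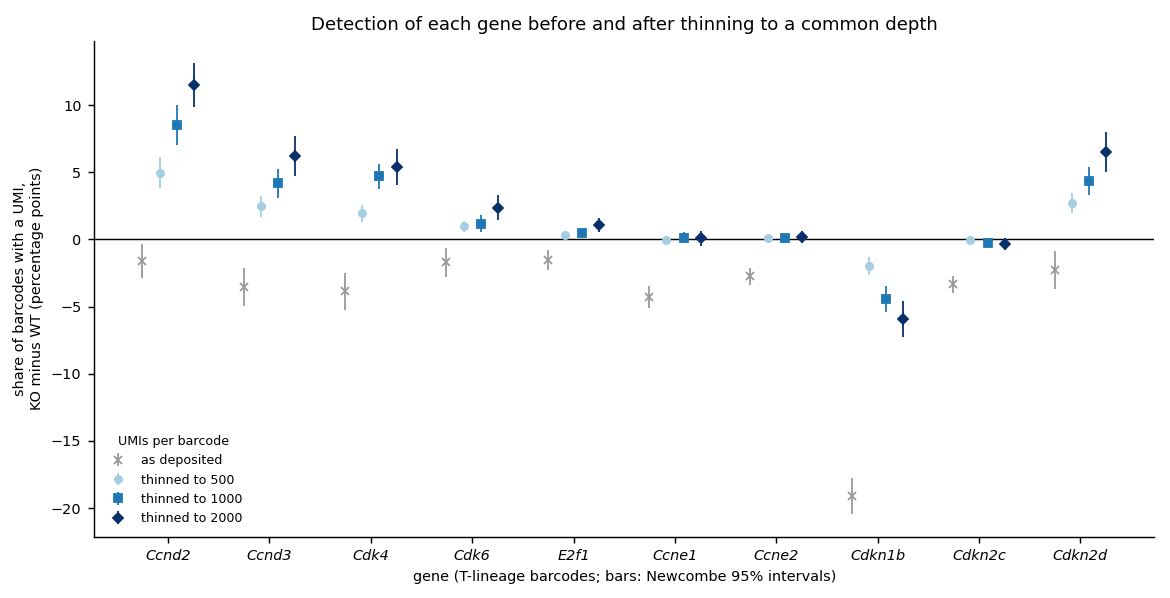
The vertical axis gives the share of T-lineage barcodes with at least 1 UMI of each gene, KO minus WT in percentage points, without thinning (grey crosses) and after thinning to 500, 1000 and 2000 UMIs per barcode (blue), with Newcombe 95% intervals as bars. All 10 grey values lie below 0, whereas the thinned values lie above 0 for Ccnd2, Ccnd3, Cdk4, Cdk6, E2f1 and Cdkn2d and below 0 for Cdkn1b at each depth.

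The other G1/S genes were given by a list of 43 genes, of which 38 had at least 200 UMIs over T-lineage barcodes of both libraries. Between KO and WT, 1 of the 38 was higher and 4 were lower past 1.5-fold, with a median log2 ratio of -0.07, beside the 13.5% of all tested genes that passed, so that the count is near the background. The higher one was Cdkn1a (p21), an inhibitor of cyclin and kinase complexes that p53 induces, at 6.99 CPM in WT and 37.6 CPM in KO, a ratio of 5.38 (4.79 to 6.06). It was 3.34 CPM in WT and 16.1 CPM in KO, a ratio of 4.82 (3.44 to 6.91), in resting barcodes and 6.30 CPM in WT and 98.5 CPM in KO, a ratio of 15.6 (11.3 to 22.3), in activated barcodes. In the other lineages the ratio was 2.41 (1.92 to 3.05). The lower ones were Rbl2 (p130, a retinoblastoma relative of resting cells) at 0.520 (0.486 to 0.557), Cdkn1c (p57, a relative of p27) at 0.536 (0.486 to 0.592), Ccnc (cyclin C) at 0.599 (0.515 to 0.695) and Cdkn3 (a phosphatase that acts on Cdk proteins) at 0.644 (0.606 to 0.685). In resting barcodes 1 of 33 listed genes was higher and 4 were lower (background 8.85%), and there Rb1 itself was at 0.661 (0.590 to 0.741) and Cdkn1c at 0.454 (0.382 to 0.539). In effector barcodes 4 of 27 were higher, led by Myc, a transcription factor of growth, at 2.82 (1.97 to 3.96) from 39 KO UMIs, and 6 were lower (background 15.6%).

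Over the cycle, 16 of 38 listed genes were higher and 6 lower in cycling than in non-cycling WT barcodes, and 17 were higher and 2 lower in KO, against 26.7% of all tested genes in WT and 15.5% in KO. E2f8 and E2f7, the repressor E2F factors, were 12.0 (9.79 to 14.8) and 11.7 (8.67 to 16.0) times the non-cycling level in WT and 7.60 (6.33 to 9.16) and 5.55 (4.27 to 7.26) times in KO. Ccna2 (cyclin A2) was at 8.74 (7.97 to 9.60) in WT and 6.34 (5.83 to 6.89) in KO. The genes of the BTG family, which restrain T cell growth, were lower in cycling barcodes: Btg1 was at 0.368 (0.354 to 0.382) in WT and 0.563 (0.546 to 0.579) in KO, and Btg2 at 0.430 (0.405 to 0.457) and 0.639 (0.603 to 0.677). From resting to activated barcodes 9 of 30 listed genes were higher and 10 lower in WT, and 11 of 33 higher and 5 lower in KO, where 51.1% and 42.1% of all tested genes passed, so that these counts are near the background. Cdkn1a led the higher ones in KO, at 6.12 (5.42 to 6.93).

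The pattern of each member was set beside those of 7524 genes over 19 groups of library, state and cycling with at least 50 barcodes. The points share libraries and differ in depth, so the Pearson correlations of log2(CPM + 1) are a description. Ccne1 was most like Cenph (r = 0.94), Pgp (0.94) and Ccne2 (0.93), and Ccne2 most like Lmnb1 (0.95), Cdc6 (0.95) and Zwilch (0.95). E2f1 was most like Cenps (0.95), Nelfe (0.94) and Cdc45 (0.94), Cdk4 most like Ndufab1 (0.97), Ptges3 (0.97) and Cdk2ap1 (0.96), and Cdkn2c most like Kif23 (0.94), Nusap1 (0.93) and Foxm1 (0.92). Cdkn1b was most like Tbc1d1 (0.95), Skap1 (0.94) and Phf20l1 (0.94), Cdkn2d most like Rasgrp2 (0.93), Tnfaip8l1 (0.91) and Hist3h2ba (0.90), and Ccnd2 most like B4galnt1 (0.92), Akt1s1 (0.86) and Il15ra (0.85). The loosest matches were those of Ccnd3, with Panx1 (0.85), Grk6 (0.83) and Gnb4 (0.83), and of Cdk6, with Larp1 (0.84), Esf1 (0.83) and Taf1d (0.83). Among the members, Ccne1 and Ccne2 were the closest pair (0.93) and Cdkn1b and Cdk4 the most opposed (-0.87), and Ccnd2 and Ccnd3 shared little of their pattern (0.22).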

How the data were processed

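Each deposited matrix holds raw UMI counts (64567991 UMIs in WT, 65480052 in KO). The submitters' processing notes and the authors' methods name Cell Ranger 5.0.1 and mm10, and the counts were used without correction for free RNA. Barcodes were kept as described, scaled to 10000 UMIs, log-transformed and clustered on 2000 variable genes (334 genes left out, among them the members and all lists) with 30 components, 20 neighbours and Leiden resolution 0.5 (igraph 0.11.9, scikit-learn 1.9.0), without integration. Clusters took a name where at least 60% of a marker list was raised 1.5-fold with a marker among the 10 leading genes, and were set apart as another lineage at under 50% of the median T gene level or with at least 80% of that lineage's list raised. These rules and the cycle cuts were set after the data had been seen. The kept barcodes include doublets, and the removal of the top 5% (WT) and 8% (KO) of Scrublet scores (scanpy 1.11.5) was an alternative. UMIs were summed per group. Ratios carry exact conditional binomial intervals, levels exact Poisson intervals and differences of shares Newcombe intervals (scipy 1.17.1). The ratio code was tested on simulated data. Genes named from the G1/S list were the 5 furthest past 1.5-fold in each direction. The members and lists were chosen with earlier results of these data known. Gene positions come from GENCODE on GRCm38.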

Additional observations from a re-analysis of the deposited data

Results flagged for a closer look

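The difference of Cdk6 between KO and WT had opposite directions in separate states. The KO over WT ratio in activated barcodes, 0.848, divided by that in effector barcodes, 1.57, gave 0.541, and divided by that in cycling barcodes, 1.39, gave 0.611. In each of these 3 states the counting interval of the ratio excluded 1. Among non-cycling barcodes alone, the ratio was 0.736 (0.627 to 0.865) in activated and 1.44 (0.995 to 2.01) in effector barcodes. The latter interval includes 1. Activated barcodes called S were at 65.3 CPM in WT and 70.4 CPM in KO, and those called G2/M at 60.5 and 63.0 CPM, each with overlapping intervals. With 1 library per genotype the difference between states was not tested. The KO effector value comes from 122 barcodes and 45 UMIs, and the WT cycling value from 79 UMIs.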

How the results depend on the processing

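Counts of members past 1.5-fold that lay near the threshold changed with the processing. Over all T-lineage barcodes the count of 0 became 2 when libraries were scaled by the median ratio of all genes (Ccnd2 and Ccnd3) and 1 in named states only (an alternative chosen after seeing the data). In resting barcodes the count of 1 became 0 without the mitochondrial filter, with means of single-barcode CPM and at double the Leiden resolution, and 2 with no minimum of UMIs, which added Cdkn2c. Among resting barcodes called non-cycling, 0 of 8 members were higher and 0 lower (background 8.64%). In non-cycling barcodes the count of 1 became 0 without the mitochondrial filter, at 0.5 times the cycling cut and at 1.5 times it, and 2 with means of single-barcode CPM (Cdkn1b lower) or median scaling (Cdkn2d). E2f1 in non-cycling barcodes was 1.34 and 1.30 at these cuts, and 1.38 in named states only, where Cdkn2c, at 0.630, was the 1 member counted. For cycling over non-cycling in WT, 1.5 times the cycling cut took Ccne1 from 4.78 to 2.12, Ccne2 from 4.83 to 2.44, E2f1 from 3.79 to 2.24 and Cdkn2d from 1.27 to 2.07, and means of single-barcode CPM took Ccne1 to 3.06 in WT and Cdkn2c from 5.34 to 3.39 in KO. The median log2 ratio of all genes there was -0.10 in WT, and scaling by it left 6 members past 1.5-fold in place of 7. Of 650 ratios recomputed, 6 moved by over 1.5 times and 12 crossed 1, and no ratio past 1.5-fold reversed. Counts for cycling barcodes, for cycling over non-cycling and for thinned shares changed by at most 1.5 times, but not always with the same members. Between KO and WT in cycling barcodes, Cdk6 also passed at 1.5 times the cycling cut, where its ratio went from 1.42 to 1.55. At 1.5 times the cycling cut, cycling over non-cycling lost Cdk4 in both libraries (1.21 in WT, 1.19 in KO) and Cdkn1b in WT (0.875), and gained Cdkn2d in both. No paired analysis was possible because each genotype has 1 library, and no library could be left out.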
